A study of Mus musculus with 10 samples.

Results

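The genes described here are the vascular endothelial growth factor (VEGF) ligands Vegfa, Vegfb, Vegfc, Vegfd and Pgf, their receptors Kdr, Flt1 and Flt4, and the neuropilin co-receptors Nrp1 and Nrp2. They were taken by symbol from the deposited gene table, in which all 10 were found among 21956 genes, and all 10 passed the filter on low counts that left 13404 genes for testing. The table holds poly(A) RNA of gastrocnemius, the large calf muscle, from 10 samples of wild-type mice, 5 labelled HLI and 5 labelled Sham. The abbreviation HLI was taken to mean hindlimb ischaemia and Sham the operated control, although no label writes either out. Age, sex and the time after the operation are not given. Whether each sample is a different animal is not stated, and the p-values therefore speak of the spread among these libraries, part or all of which could be technical. The study concerns FGF13 of the endothelium and how HIF-1α is degraded during vessel growth, and the comparison of HLI with Sham asks whether the ligands and receptors of vessel growth differed in the ischaemic muscle.

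VEGF-A is secreted by muscle fibres and other cells, is induced by hypoxia through HIF factors, and acts on endothelial cells mainly through KDR (VEGFR2), the receptor that drives vessel sprouting and permeability. FLT1 (VEGFR1) binds VEGF-A tightly but signals weakly, and its soluble form traps the ligand. VEGF-B and PGF bind FLT1 but not KDR, whereas VEGF-C and VEGF-D bind FLT4 (VEGFR3), the receptor of lymphatic growth, and neuropilins hold ligands and semaphorins beside these receptors. In resting skeletal muscle this family is known for keeping the capillary bed around the fibres.

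Estimated counts summed to between 16788953 and 18525905 in HLI libraries and between 16556385 and 22136299 in Sham libraries. Among the 10 genes the estimated count ran from 29 for Vegfd in Sham replicate 1 to 5090 for Kdr in the same library. Some libraries stood apart in their cell markers. The summed level of 5 markers of new muscle fibres, in CPM (counts scaled to a common library size), was 39.8, 203, 1394, 307 and 251 in HLI replicates 1 to 5, against 285, 18.3, 21.4, 18.7 and 25.4 in Sham replicates 1 to 5. HLI replicate 3 and Sham replicate 1 thus stood far above the others of their group, and HLI replicate 1 was the HLI library nearest to the Sham values. HLI replicate 3 also had the lowest sum of 10 fast fibre markers, at 39590 CPM. The remaining HLI libraries spanned 69963 to 112926 CPM and the Sham libraries 91739 to 126403 CPM, and these muscle markers were abundant in every library. The sums of 12 endothelial markers overlapped between the groups, from 968 to 1536 CPM in HLI and from 874 to 1514 CPM in Sham. The 10 monocyte and macrophage markers summed to 734 to 2970 CPM in HLI, against 518 to 1374 CPM in Sham. In whole tissue, fewer cells of a type and less RNA per cell cannot be told apart.

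Of the 10 genes, 0 passed the test between HLI and Sham, and 0 of the 13404 genes tested did (0%, adjusted p under 0.05 by Benjamini-Hochberg, quasi-likelihood test in edgeR). At an unadjusted p under 0.05 the test held 2262 of all genes, or 16.9%, and 3 of the 10, namely Flt1, Nrp1 and Nrp2. DESeq2 called 45 of all genes and 0 of the 10. Flt1 was the lower one in HLI and both neuropilins were higher. The log2 fold changes of HLI over Sham were below 0 for 6 genes and above 0 for 4, with a median of -0.04, beside a median of 0.03 over all genes tested. The count of 3 ran from 1 to 4 when each library was left out, and it was 1 without HLI replicate 2, HLI replicate 3, Sham replicate 2, Sham replicate 4 or Sham replicate 5.

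**Figure D1:**
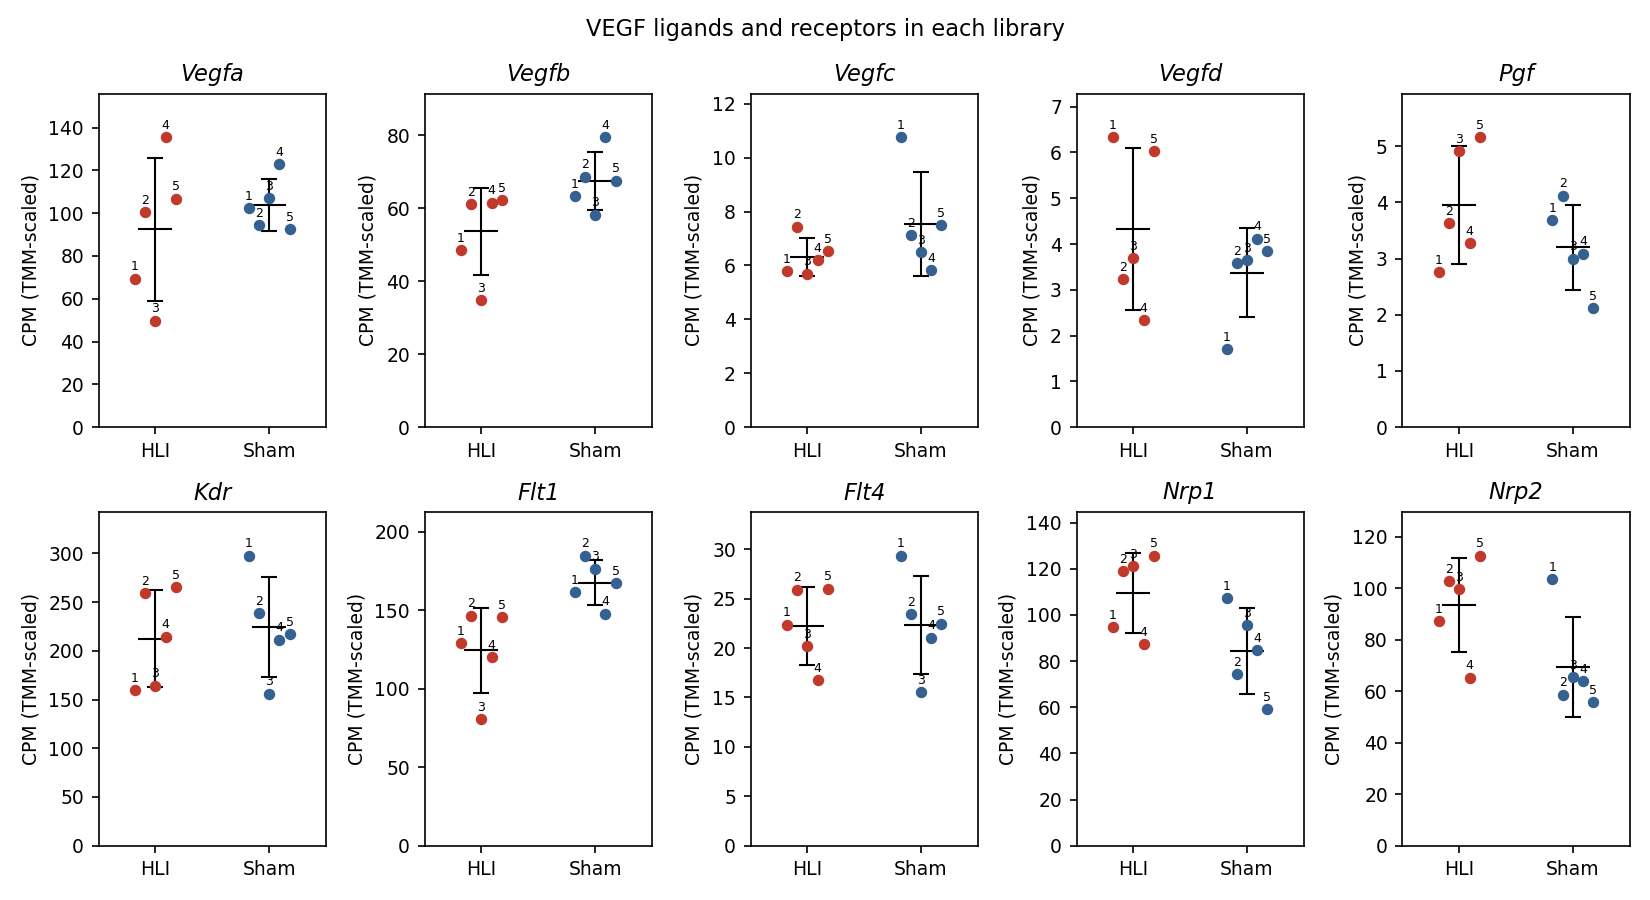
CPM with TMM-scaled library sizes (y axes, from 0) of the 10 genes in 5 HLI and 5 Sham libraries; points are libraries with their replicate numbers, and bars are the mean ± SD. Flt1 is the panel in which all HLI points lie below all Sham points, and in the other 9 panels the groups overlap.

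Among the ligands, Vegfa (ENSMUSG00000023951) did not differ in its mean beyond the spread, but it was scattered more widely in HLI. It had 69.4, 101, 49.7, 136 and 107 CPM in HLI replicates 1 to 5, against 102, 94.3, 107, 123 and 92.5 CPM in Sham replicates 1 to 5. HLI replicate 4 lay above every Sham library and HLI replicates 1 and 3 below them all. The mean was 92.4 ± 33.5 CPM in HLI and 103.8 ± 12.1 CPM in Sham (SD, n = 5 each), a coefficient of variation of 36.2% in HLI and 11.7% in Sham. The log2 fold change was -0.17 (SE 0.23, edgeR adjusted p = 0.67). It was -0.01 without HLI replicate 3, the library with the fewest fast fibre transcripts, and -0.36 without HLI replicate 4, the library with the highest fast fibre sum in HLI. The part of the fibre content in this spread was not tested. Counts per gene do not separate the splice forms of Vegfa, which differ in how they bind matrix and neuropilins.

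Vegfb (ENSMUSG00000024962), a FLT1 ligand best known from muscle and heart, was the most abundant member per gene length. Its level was 48.5, 61.2, 34.9, 61.6 and 62.2 CPM in HLI replicates 1 to 5, against 63.3, 68.7, 58.3, 79.6 and 67.6 CPM in Sham replicates 1 to 5. HLI replicates 1 and 3 lay below the Sham range and the other HLI libraries within it. The means of 53.7 ± 12.0 CPM in HLI and 67.5 ± 7.90 CPM in Sham (SD, n = 5 each) gave a difference of -0.33 on the log2 scale (SE 0.16, edgeR unadjusted p = 0.062, adjusted p = 0.31). All 10 fits that left out a library kept it below 0, from -0.40 to -0.21, with the value nearest 0 obtained without HLI replicate 3. The edgeR unadjusted p was under 0.05 in 3 of these 10 fits, and it was 0.015 with a replicate block.

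Pgf (ENSMUSG00000004791), placental growth factor, was scarce, with 32 to 101 counts a library. It had 2.76, 3.64, 4.91, 3.28 and 5.16 CPM in HLI replicates 1 to 5, against 3.69, 4.12, 3.0, 3.09 and 2.12 CPM in Sham replicates 1 to 5. HLI replicates 3 and 5 were above all Sham libraries and the rest overlapped (log2 fold change 0.30, SE 0.24, edgeR adjusted p = 0.47). Leaving out Sham replicate 5 gave 0.18, and leaving out HLI replicate 5 gave 0.19. The level of Pgf per Vegfa, as a ratio of TPM (a transcript abundance per gene length), was 0.187 in HLI replicate 3. It ran from 0.045 to 0.096 over the remaining HLI replicates and from 0.045 to 0.084 in Sham.

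The ligands of FLT4 were scarce as well. Vegfc (ENSMUSG00000031520) had between 102 and 184 counts, and its level of 6.33 ± 0.71 CPM in HLI and 7.54 ± 1.91 CPM in Sham (SD, n = 5 each) differed by less than the spread between libraries (log2 fold change -0.25, SE 0.18, edgeR adjusted p = 0.42). Sham replicate 1, at 10.8 CPM, was the highest of all libraries, and without it the log2 fold change was -0.09. Vegfd (ENSMUSG00000031380) had 6.34, 3.23, 3.70, 2.34 and 6.03 CPM in HLI replicates 1 to 5, against 1.70, 3.58, 3.64, 4.12 and 3.84 CPM in Sham replicates 1 to 5. The highest values were those of HLI replicates 1 and 5 and the lowest was that of Sham replicate 1, so that Sham replicate 1 was highest for Vegfc and lowest for Vegfd. The log2 fold change of Vegfd was 0.36 (SE 0.32, edgeR adjusted p = 0.51). It was 0.18 without HLI replicate 1, and 0.01 without Sham replicate 1 and HLI replicate 1 together. Vegfd per Vegfc, as a TPM ratio, was 0.188 in Sham replicate 1 and 0.602 to 0.672 in the other Sham libraries, and it spread from 0.451 to 1.31 in HLI.

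Among the receptors, Flt1 (ENSMUSG00000029648) was the gene with the smallest p of the family. Its level was 129, 147, 80.7, 120 and 145 CPM in HLI replicates 1 to 5, against 161, 185, 176, 148 and 167 CPM in Sham replicates 1 to 5. All 5 HLI libraries were below all 5 Sham libraries, but by a narrow margin, with 147 CPM in HLI replicate 2 and 148 CPM in Sham replicate 4. Such a split in this direction was found in 117 of 13404 genes (0.873%). The log2 fold change was -0.43 (SE 0.16), or 0.743 times the Sham level, with an edgeR unadjusted p of 0.017 and an adjusted p of 0.29. It lay between -0.50 and -0.31 when each library was left out, with an unadjusted p from 0.013 to 0.040 over these 10 fits and an adjusted p of at least 0.12. Without Sham replicate 1 and HLI replicate 1 together it was -0.46 (adjusted p = 0.22), and without Sham replicate 1 and HLI replicate 3 it was -0.32 (adjusted p = 0.29). On TPM without further scaling, the groups overlapped, with 28.4 to 42.1 in HLI and 34.1 to 46.9 in Sham. The log2 difference on log2(TPM + 1) was -0.24, which is -0.43 relative to the median of 0.19 over all genes on that scale. HLI replicate 3 was the lowest library for Flt1, as it was for Vegfa, Vegfb and fast fibre markers. Counts per gene do not separate the soluble form of FLT1 from the membrane receptor.

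Kdr (ENSMUSG00000062960), the receptor with the highest TPM, did not divide the libraries by group. It had 160, 259, 164, 215 and 265 CPM in HLI replicates 1 to 5, against 298, 239, 156, 211 and 217 CPM in Sham replicates 1 to 5. The highest and the lowest of the 10 libraries were both Sham, replicates 1 and 3, which were also the highest and the lowest Sham libraries for the endothelial marker sum. The log2 fold change was -0.08 (SE 0.20, edgeR adjusted p = 0.84). It was above 0 on unscaled TPM (0.12) and without Sham replicate 1 (0.05), HLI replicate 1 (0.01) or HLI replicate 3 (0.0032).

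Flt4 (ENSMUSG00000020357) had close means, at 22.3 ± 3.95 CPM in HLI and 22.4 ± 4.96 CPM in Sham (SD, n = 5 each). The libraries ran from 16.7 CPM in replicate 4 to 26.0 CPM in replicate 5 in HLI, and from 15.5 CPM in replicate 3 to 29.4 CPM in replicate 1 in Sham. The fitted log2 difference was -0.01 (SE 0.17, edgeR adjusted p = 0.98), with the opposite sign under 9 of 19 alternatives, unscaled TPM among them. Markers of lymphatic vessels, in which FLT4 is best known, summed to 63.6 to 210.3 CPM in HLI and 115 to 166 CPM in Sham. HLI replicate 1 was the highest of all libraries for that sum while its Flt4 level was 22.4 CPM. The 6 lymphatic markers did not move together, with 2 log2 fold changes above 0 and 4 below. Lyve1 among them spread widely in HLI, at 35.2 ± 32.4 CPM against 35.6 ± 8.10 CPM in Sham (SD, n = 5 each). The part of other cell types in the sum was not tested.

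Both neuropilin genes were higher in HLI on average, with overlapping groups. Nrp1 (ENSMUSG00000025810), the co-receptor of VEGF-A and of semaphorin 3A, had 94.7, 119, 121, 87.4 and 126 CPM in HLI replicates 1 to 5, against 107, 74.2, 95.5, 84.8 and 59.2 CPM in Sham replicates 1 to 5. HLI replicates 2, 3 and 5 were above every Sham library, while HLI replicates 1 and 4 were among the Sham values. Its log2 fold change was 0.38 (SE 0.17, edgeR unadjusted p = 0.043, adjusted p = 0.29), and between 0.27 and 0.48 when each library was left out, with an unadjusted p under 0.05 in 4 of these 10 fits. Without Sham replicate 1 and HLI replicate 1 together it was 0.53 (adjusted p = 0.17), and without Sham replicate 1 and HLI replicate 3 it was 0.45 (adjusted p = 0.31).

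Nrp2 (ENSMUSG00000025969), which pairs with FLT4 and binds VEGF-C and semaphorin 3F, had 87.3, 103, 99.7, 65.2 and 113 CPM in HLI replicates 1 to 5. The Sham libraries had 104, 58.6, 65.4, 63.8 and 55.7 CPM in replicates 1 to 5. Sham replicate 1 thus lay among the HLI libraries and HLI replicate 4 among the Sham libraries. The log2 fold change was 0.43 (SE 0.19, edgeR unadjusted p = 0.044, adjusted p = 0.29). Without Sham replicate 1 it was 0.62 (unadjusted p = 0.0022, adjusted p = 0.16), and without Sham replicate 1 and HLI replicate 1 it was 0.64 (adjusted p = 0.13). Without Sham replicate 1 and HLI replicate 3 it was 0.60 (adjusted p = 0.22), so it did not pass the test in any of these fits. The unadjusted p was under 0.05 in 2 of the 10 fits that left out a library. Unscaled TPM gave log2 differences of 0.58 for Nrp1 and 0.62 for Nrp2, which is 0.40 and 0.44 relative to the median of 0.19 over all genes on that scale. Macrophages also make neuropilins, and the macrophage marker sum was high in HLI replicates 1 and 3, at 2970 and 2656 CPM, and lowest among HLI libraries in replicate 4, at 734 CPM. The part of these cells in the neuropilin levels was not tested.

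**Figure D2:**
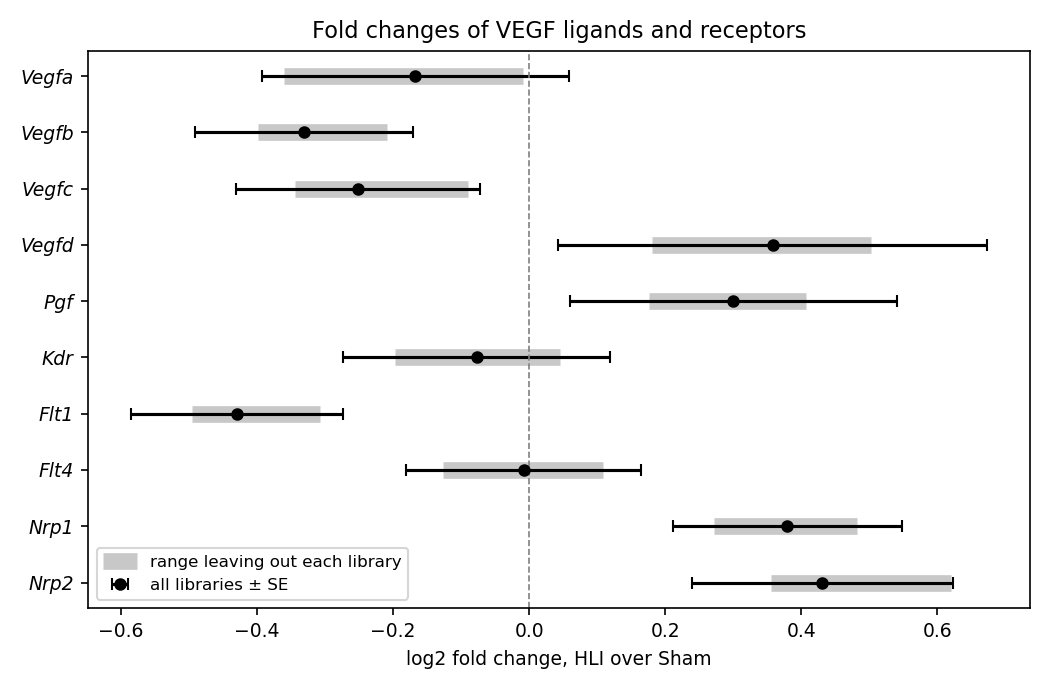
Log2 fold change of HLI over Sham (x axis) for each gene from the edgeR fit, with its standard error as whiskers; grey bars span the values obtained when each of the 10 libraries is left out. Grey bars stay below 0 for Vegfa, Vegfb, Vegfc and Flt1, above 0 for Vegfd, Pgf, Nrp1 and Nrp2, and cross 0 for Kdr and Flt4.

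The promoters of Flt1, Nrp1 and Nrp2, the genes with an unadjusted p under 0.05, are printed because the study concerns HIF-1α, whose DNA site has the core ACGTG or GCGTG. Each is the 250 bases before the RefSeq start (GRCm38.p6), at chr5:147726012-147726261 on the minus strand for Flt1, chr8:128358823-128359072 on the plus strand for Nrp1 and chr1:62703067-62703316 on the plus strand for Nrp2. They are written 5′ to 3′ on the gene's strand, and capitals mark ACGTG or GCGTG on either strand, which read CACGT or CACGC on the other strand.
Flt1: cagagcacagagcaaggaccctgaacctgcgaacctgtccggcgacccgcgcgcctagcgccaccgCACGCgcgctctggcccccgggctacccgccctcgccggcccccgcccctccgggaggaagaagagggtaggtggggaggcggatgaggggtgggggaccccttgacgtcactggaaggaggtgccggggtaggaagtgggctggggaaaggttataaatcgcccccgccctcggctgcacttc
Nrp1: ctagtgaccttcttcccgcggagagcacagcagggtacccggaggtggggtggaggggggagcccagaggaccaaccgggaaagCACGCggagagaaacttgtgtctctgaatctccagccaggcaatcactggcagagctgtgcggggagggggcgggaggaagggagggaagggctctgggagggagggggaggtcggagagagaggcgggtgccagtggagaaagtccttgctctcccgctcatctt
Nrp2: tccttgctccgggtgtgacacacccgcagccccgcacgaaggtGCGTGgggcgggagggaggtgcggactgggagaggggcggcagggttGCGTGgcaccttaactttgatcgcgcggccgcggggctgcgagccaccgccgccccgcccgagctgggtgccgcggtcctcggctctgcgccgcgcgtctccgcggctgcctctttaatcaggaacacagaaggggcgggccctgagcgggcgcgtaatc
Flt1 and Nrp1 each held 1 GCGTG on the opposite strand, 184 and 166 bases before the start, and Nrp2 held 2 on its own strand, 207 and 160 bases before it. All 3 lacked ACGTG in this window. Over the family, 7 of 12 windows of the 10 genes held either core, against 38.6% of 32851 windows of this length. Vegfa had 2 windows, of which the upstream one held 0 of these cores. The other held 1 GCGTG and the only ACGTG of the family. This other window, chr17:46025164-46025413 on the minus strand, lies downstream of the start that the upstream one precedes. It counts among the 7 windows, and whether it acts as a promoter was not tested. Sites outside these 250 bases were not searched. The window of Kdr held 2 GCGTG. Of the other motifs searched on both strands, the GC box GGGCGG was in 10 of 12 windows (32.7% of all windows). CCGGAAG, 1 long form of the ETS factor site, was in 0 of 12 (6.91% of all). Shorter ETS cores with other flanking bases were not searched, and GGAAG itself occurs in the printed Flt1 window. A match is a run of letters and not a measured site.

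The order of the levels was compared per gene length, in TPM. Means in HLI ran from 85.1 TPM for Vegfb through 69.3 for Kdr, 60.1 for Nrp1, 58.3 for Vegfa, 35.6 for Flt1 and 28.6 for Nrp2 to 6.97 for Flt4, 5.02 for Vegfc, 4.95 for Pgf and 4.18 for Vegfd. In Sham the order was Vegfb at 94.3 TPM, Kdr at 64.4, Vegfa at 57.2, Flt1 at 42.2, Nrp1 at 40.0, Nrp2 at 18.3, Flt4 at 6.08, Vegfc at 5.46, Pgf at 3.45 and Vegfd at 2.76. Nrp1 stood at place 3 in HLI and at place 5 in Sham, and the other genes kept their order among themselves. The step from Nrp2 to Flt4, which parts 6 abundant genes from 4 scarce ones, was the one where neighbours did not overlap in either group. In Sham the ranges of Vegfa and Flt1, and of Vegfc and Pgf, did not overlap either, and all other neighbours did.

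**Figure D3:**
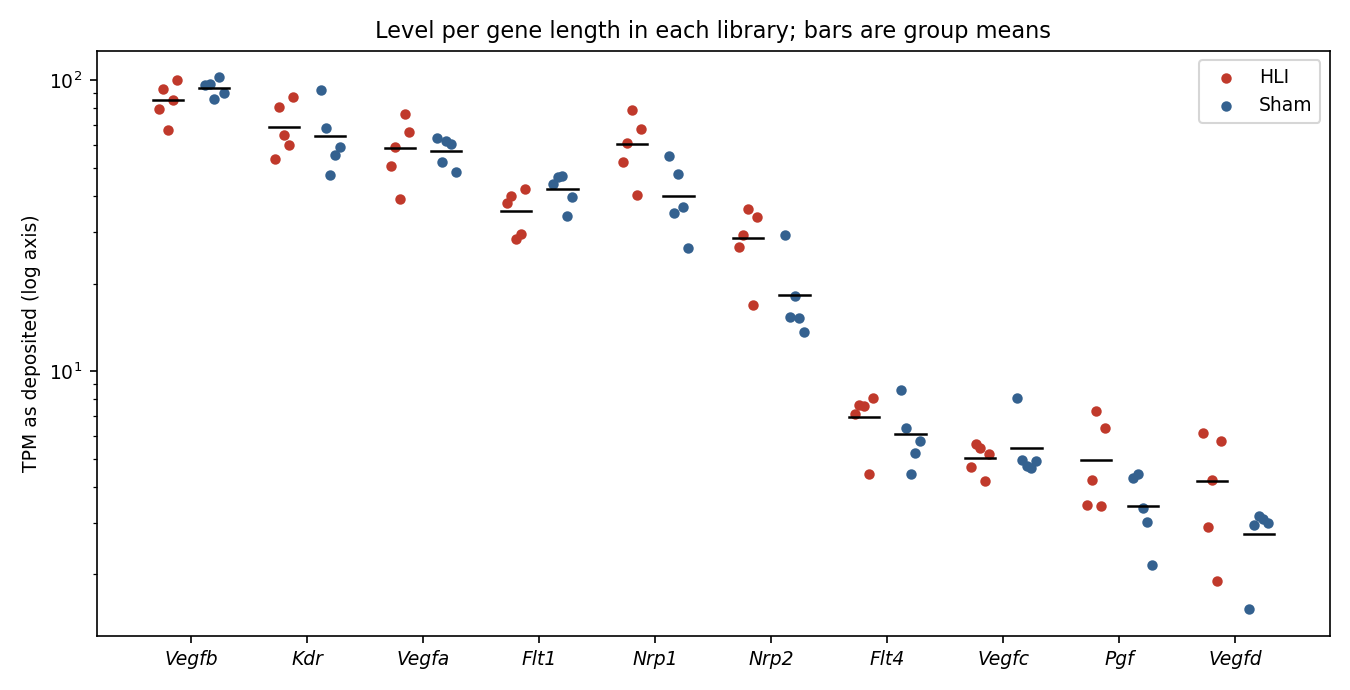
TPM as deposited (log axis) of each gene in 5 HLI and 5 Sham libraries, ordered by the Sham mean, with bars at group means. The 6 genes on the left lie above 13 TPM in every library and the 4 on the right below 9 TPM.

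Ratios of TPM within a library do not depend on how libraries are scaled to each other, and they are given as a description chosen with earlier results in view. Flt1 per Kdr, the weakly signalling receptor over the main one, was 0.709, 0.497, 0.436, 0.495 and 0.483 in HLI replicates 1 to 5, against 0.476, 0.677, 0.998, 0.616 and 0.673 in Sham replicates 1 to 5. The ratio was under 0.5 in HLI replicates 2 to 5 and in Sham replicate 1, and above 0.6 in HLI replicate 1 and Sham replicates 2 to 5. The new fibre sum was 39.8 CPM in HLI replicate 1 and 285 CPM in Sham replicate 1, and its part in the ratio was not tested. Nrp1 per Kdr was 0.880 ± 0.218 in HLI and 0.645 ± 0.218 in Sham, and Nrp2 per Flt4 was 4.07 ± 0.43 in HLI and 3.03 ± 0.72 in Sham (SD, n = 5 each), with overlap in both.

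Flt4 per Kdr had a narrow range in Sham, with 0.093, 0.093, 0.094, 0.094 and 0.098 in replicates 1 to 5, although Kdr itself ran from 156 to 298 CPM there. In HLI the ratio was 0.133, 0.095, 0.116, 0.074 and 0.093 in replicates 1 to 5, so HLI libraries lay on both sides of the Sham values. Nrp2 per Nrp1 stayed between 0.418 and 0.509 in HLI and between 0.382 and 0.534 in Sham.

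**Figure D4:**
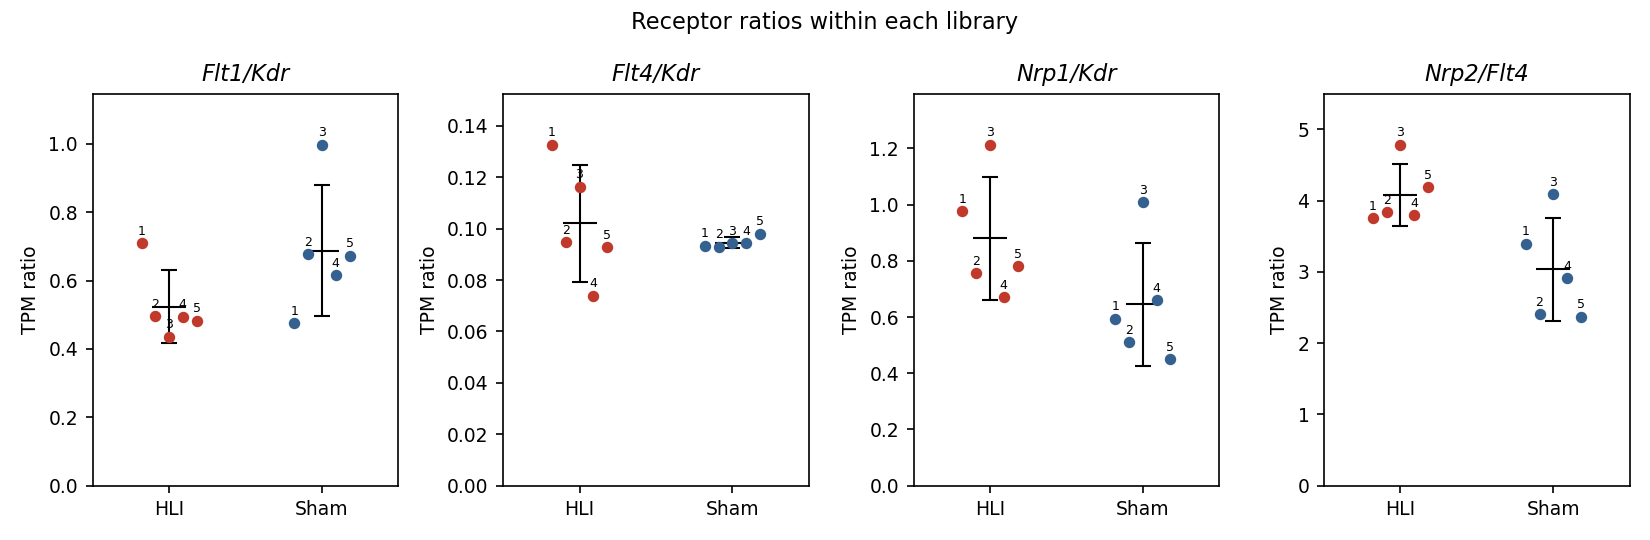
Ratios of TPM between receptors (y axes, from 0) in HLI and Sham libraries; points carry replicate numbers, and bars are the mean ± SD over 5 libraries. Sham values of Flt4 per Kdr lie between 0.093 and 0.098 and HLI values between 0.074 and 0.133.

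The receptors and co-receptors were also set against the summed endothelial markers, since endothelium is a main site of their expression. Flt1 amounted to 9.87 ± 2.41% of that sum in HLI and 15.6 ± 3.41% in Sham (SD, n = 5 each), and 4 of 5 HLI libraries lay below all Sham libraries. Kdr amounted to 16.5 ± 1.86% in HLI and 20.1 ± 1.55% in Sham, again with 4 of 5 HLI libraries below all Sham libraries. Flt4, at 1.76 ± 0.33% in HLI and 2.0 ± 0.15% in Sham, had 4 HLI libraries below all Sham libraries and 1 above them. The neuropilins had higher means in HLI, with Nrp1 at 8.64 ± 1.12% in HLI and 7.75 ± 2.14% in Sham, and Nrp2 at 7.38 ± 1.31% in HLI and 6.24 ± 1.05% in Sham. The groups overlapped for both, and 2 HLI libraries were above all Sham libraries for Nrp2. Of all 10 members, the ligand gene Vegfc was the one whose groups did not overlap on this scale, at 0.425 to 0.598% in HLI and 0.600 to 0.742% in Sham. Such a split in this direction was found in 25 of 13404 genes (0.187%). The margin was narrow, and Vegfc had only 102 to 184 counts a library. These shares were not tested, and the endothelial sum in their denominator averaged 1282 CPM in HLI and 1115 CPM in Sham. Of the 12 endothelial markers, 11 had a log2 fold change above 0, beside 7210 of all 13404 genes tested. Of these 12 markers 0 passed the test, and none was at 0 counts in all libraries.

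**Figure D5:**
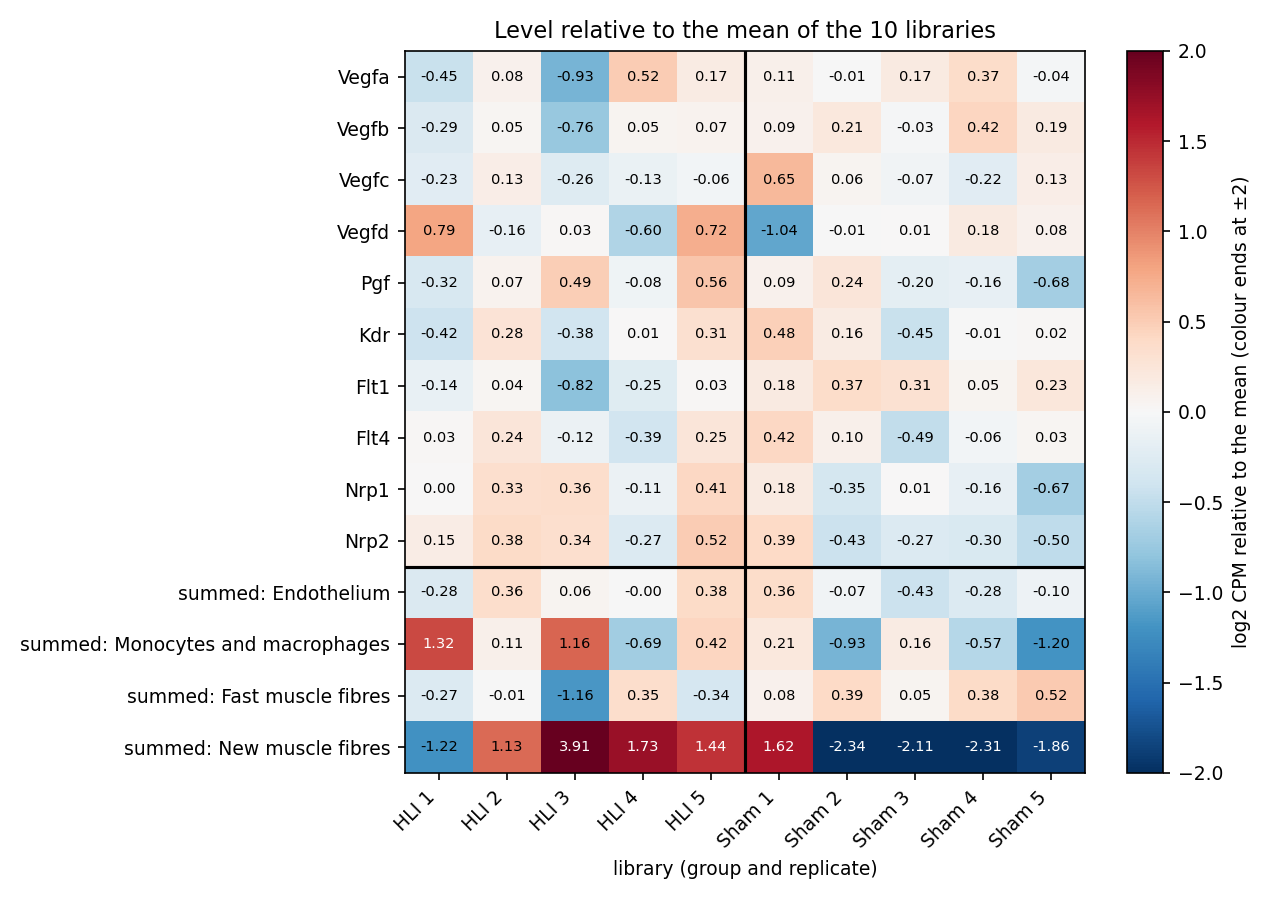
Log2 CPM of each gene, and log2 summed CPM of 4 marker lists, relative to the mean of the 10 libraries; columns are HLI then Sham libraries and the colour scale ends at ±2. Vegfa, Vegfb, Flt1 and the fast fibre sum have their lowest value in HLI replicate 3, and the new fibre sum is high in HLI replicate 3 and Sham replicate 1 and low in HLI replicate 1.

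Other genes of the VEGF pathway were read by role, and 0 of the 86 members tested passed in either direction. Over all 13404 genes tested, 7210 had a log2 fold change above 0 and 6194 below. Genes of a list can vary together over the same libraries, and the counts by direction given for each list were not tested. Of 11 tested genes of ligand processing and matrix release, 9 had values above 0 (median log2 fold change 0.12). Ccbe1, which encodes the cofactor that lets ADAMTS3 cleave VEGF-C, had 10.8 ± 6.76 CPM in HLI and 5.37 ± 1.77 CPM in Sham (SD, n = 5 each). Its highest HLI library was replicate 3 at 21.5 CPM (log2 fold change 1.01, SE 0.39, edgeR adjusted p = 0.29). Adamts14, a protease related to ADAMTS3 and able to cleave VEGF-C, had 6.96 ± 3.30 CPM in HLI and 2.82 ± 0.75 CPM in Sham (log2 fold change 1.30, SE 0.30, edgeR adjusted p = 0.29). Adamts3 itself had 3.37 ± 0.86 CPM in HLI and 4.39 ± 0.64 CPM in Sham.

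Of 12 semaphorins and plexins, some of which share the neuropilins with VEGF, 8 had values above 0 (median 0.14). Plxnd1, the receptor of semaphorin 3E on endothelium, had 152, 236, 256, 187 and 244 CPM in HLI replicates 1 to 5, against 226, 138, 112, 128 and 166 CPM in Sham replicates 1 to 5. As for Nrp2, Sham replicate 1 lay among the HLI libraries (log2 fold change 0.48, SE 0.20, edgeR adjusted p = 0.29). Of 10 receptor partners at the membrane, 9 were above 0 (median 0.26). This list holds Cdh5, the VE-cadherin gene, which is also an endothelial marker.

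The signal relay downstream of the receptors had 15 of 27 tested genes above 0 and 12 below (median 0.09). Prkcb, a protein kinase C gene also used by immune cells, had 6.61 ± 2.91 CPM in HLI and 2.65 ± 0.51 CPM in Sham, and its lowest HLI library was replicate 4 at 2.17 CPM (log2 fold change 1.32, SE 0.34, edgeR adjusted p = 0.29).

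Of 16 genes known to be induced by VEGF in endothelium, 14 had values above 0 (median 0.32), beside 7210 of all 13404 genes tested. Egr3, an immediate early transcription factor gene of this response, had 8.38, 4.16, 6.33, 6.56 and 16.3 CPM in HLI replicates 1 to 5, against 3.74, 2.62, 2.41, 3.55 and 1.99 CPM in Sham replicates 1 to 5. All 5 HLI libraries were above all 5 Sham libraries, which 104 of 13404 genes (0.776%) did in this direction. Its log2 fold change was 1.54 (SE 0.34), with an adjusted p of 0.29 by edgeR and of 0.016 by DESeq2. DESeq2 also called Adamts14 (adjusted p = 0.035), and no other gene of these lists. Nr4a2, another early response gene, had 4.46 ± 1.49 CPM in HLI and 2.90 ± 0.29 CPM in Sham, and HLI replicate 2 was below all Sham libraries. Rcan1, the most abundant of the 16 genes, was lower in HLI, at 150.5 ± 61.1 CPM against 220.2 ± 49.0 CPM in Sham (SD, n = 5 each). Its log2 fold change was -0.55 (SE 0.28, edgeR adjusted p = 0.32). The 16 genes summed to a mean of 663 CPM in HLI and 663 CPM in Sham. Many stimuli besides VEGF induce these genes, in muscle fibres as well as in endothelium.

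Of 10 regulators of Vegfa transcription, 4 had values above 0 and 6 below (median -0.12). Esrra, the nuclear receptor through which PGC-1α raises Vegfa, had 33.6, 39.9, 23.3, 45.4 and 35.5 CPM in HLI replicates 1 to 5, against 48.5, 51.6, 40.4, 46.8 and 57.5 CPM in Sham replicates 1 to 5. Its highest HLI library was replicate 4, as for Vegfa, and the log2 fold change was -0.46 (SE 0.16, edgeR adjusted p = 0.29).

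The genes whose pattern over the 10 libraries was most like that of each member were taken by Pearson's r of log2 CPM, as a description. For the ligands they were Cecr2, Nrdc and Lifr for Vegfa (r = 0.97, 0.96 and 0.96), and Ap4s1, Atp5mc1 and Dusp28 for Vegfb (r = 0.99, 0.99 and 0.98). Vegfc was most like Car7, Nherf2 and Nicn1 (r = 0.88, 0.83 and 0.82), Vegfd like Lbhd1 and Arl8a (r = 0.86 and 0.83), and Pgf like Krt18, Tcaf2 and Kcnj15 (r = 0.91, 0.89 and 0.87). The receptor genes had Shroom4, C1qtnf9 and Adgrf5 beside Kdr (r = 0.97, 0.94 and 0.94), Txnip, Mafk and L1cam beside Flt1 (r = 0.96, 0.95 and 0.95), and Htra3, Agap1 and Lama2 beside Flt4 (r = 0.99, 0.96 and 0.95). Nrp1 was most like Prr14l, 9930111J21Rik1 and Prkd3 (r = 0.99, 0.97 and 0.96), and Nrp2 like Reep3, Eogt and Elmo1 (r = 0.98, 0.97 and 0.96). The 3 scarcest ligands had the lowest of these values, and such maxima over 13404 genes are high by selection.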

How the data were processed

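Poly(A) RNA of 5 HLI and 5 Sham gastrocnemius samples was sequenced as paired-end libraries, per the labels' protocols, which also speak of adipose material and of cells in places. HISAT2 2.0, Bowtie 0.12.2 and the build mm8 are listed, without roles, per the submitters' processing notes. How reads were counted, and whether by strand, is not given in the sources used here. Antisense or overlapping reads thus cannot be told apart, and no gene coordinates in the build of the files are given. The authors deposited estimated counts, not normalized, of which 93.4% were whole numbers within 1e-06, and TPM values, which are relative to gene length, per the file headers.

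After rounding, all genes entered edgeR 4.0.16 (R 4.3.3) and its quasi-likelihood test (filterByExpr, count minimum 10, total minimum 15, TMM, HLI over Sham, no covariate, Benjamini-Hochberg adjustment over 13404 genes, calls at 0.05). All standard errors and adjusted p-values are from that fit unless another tool is named. Levels in CPM use the TMM library sizes. Alternatives were a replicate block, leaving out each library, no filter, DESeq2 size factors, DESeq2 1.42.0, and limma 3.58.1 on log2(TPM + 1), log2(TPM + 0.1) and scaled TPM. Chosen after seeing the data were leaving out Sham replicate 1 with HLI replicate 1, which are nearest to the opposite group in new fibre markers, so that this favours a difference, and leaving out Sham replicate 1 with HLI replicate 3, which stand farthest from their own groups. On simulated counts with the same means and 100 genes each, 75% of 2-fold and 99% of 4-fold changes were recovered, and 3.33% of calls were false. Each gene was drawn independently, with a spread set by its mean level alone. The simulation thus held no shifts shared by many genes of a library, and its rates need not hold for these data.

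The members and gene lists were chosen with earlier results of these data known. Named are all 10 members, from each pathway list the 2 genes with the smallest unadjusted p under 0.05, and the 3 genes most like each member by Pearson's r of log2 CPM with a prior count of 2, except 2 genes that are not reported here. Endothelial, lymphatic, pericyte, macrophage, neutrophil, fibro-adipogenic, fast, slow and new fibre, adipocyte and Schwann cell lists served as markers. Adamts3, Cdh5, Rcan1 and the ratios were singled out after their values were seen. Promoter sequences are from RefSeq (GRCm38.p6), matched by symbol for 10 of 10 genes. As a check of orientation, the bases after a window were found in annotated sense transcripts of the gene for 8 of the 10. For the rest the orientation relies on the RefSeq strand alone.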

Additional observations from a re-analysis of the deposited data

Results flagged for a closer look

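Over the members' CPM, 8 pathway genes picked by their p and the TPM ratios, 56 groups of 5 libraries were examined for a library far from the others. Such a library was found in 8 groups, where chance gives about 5% for independent, normally distributed values. The ratios reuse the members' values, so the groups are not independent and no excess over chance can be read from the 8. Sham replicate 1 accounts for 3 of these 8 groups. Its Vegfd level was 1.70 CPM, against 3.58 CPM in the nearest Sham library. Its Nrp2 level was 103.5 CPM, against 65.4 CPM in the nearest Sham library and within the range of HLI. Its Vegfd per Vegfc ratio was 0.188, against 0.602 in the nearest Sham library. This library also had the highest Vegfc, Kdr and Flt4 levels of all 10 and a new fibre sum of 285 CPM.

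HLI replicate 4 accounts for 2 more, with a Vegfa per Flt1 ratio of 2.58, against 1.57 in the nearest HLI library, and a Vegfa per Vegfb ratio of 0.901, against 0.661. HLI replicate 1 had a Flt1 per Kdr ratio of 0.709, against 0.497 in the nearest HLI library. HLI replicate 3 had 12.6 CPM of Adamts14, against 6.17 CPM in the nearest HLI library. In Sham replicate 5 the Flt4 per Kdr ratio was 0.098, against 0.094, while the other 4 Sham values were close to each other. The causes were not tested.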

How the results depend on the processing

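Of 190 values for the 10 genes under 19 alternatives each, 173 kept their direction, 17 reversed and 0 passed the threshold. Leaving out 1 library gave Kdr values from -0.20 to 0.05 and Flt4 values from -0.13 to 0.11. Kdr was 0.12 on log2(TPM + 1) and on log2(TPM + 0.1), and 0.13 without Sham replicate 1 together with either HLI replicate 1 or HLI replicate 3. Flt4 was 0.0026 with the replicate block, 0.17 on log2(TPM + 1), 0.20 on log2(TPM + 0.1), 0.11 without Sham replicate 1 and HLI replicate 1, and 0.14 without Sham replicate 1 and HLI replicate 3. Vegfa was 0.00042 on log2(TPM + 1). Unscaled TPM moved the median of all genes to 0.19, or 0.21 with the smaller pseudocount. Relative to the median of 0.19 on log2(TPM + 1), Vegfa was -0.18, Kdr -0.07 and Flt4 -0.01, below 0 as in the main fit.

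The count of called genes was 0 in edgeR and limma with all 10 libraries, 0 in each fit without 1 library, 45 in DESeq2 (2 in the pathway lists, 0 members) and 54 without Sham replicate 1 and HLI replicate 1 (0 members). That pair was left out after seeing the data and is the one nearest to the opposite group in new fibre markers, a choice that favours calls. Without Sham replicate 1 and HLI replicate 3, also chosen after seeing the data, edgeR called 0 genes, with 1845 at an unadjusted p under 0.05. With the replicate block 0 genes passed, and the smallest adjusted p by edgeR was 0.092, against 0.29 without it. Genes at an unadjusted p under 0.05 were 2986 with the block and 2262 without it. The 3 members under 0.05 with the block were Vegfb (edgeR unadjusted p = 0.015), Flt1 (0.017) and Nrp2 (0.046), while Nrp1 had 0.063. Same-numbered HLI and Sham libraries shared little (correlations of their deviations between -0.01 and 0.28, and 0 of 5 HLI libraries most like their own number), so the numbers were not taken as pairs. Pgf, Vegfd and Vegfc rest on under 200 counts a library, where counting error adds to the spread. The causes of these shifts were not tested.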

Other observations

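Adipocyte, Schwann cell and slow fibre markers, which the comparison of the VEGF family did not use, had lower summed means in HLI. Summed adipocyte markers were 45.3 CPM in HLI replicate 4 and 164 to 448 CPM over the remaining HLI replicates, against 287 to 476 CPM in Sham. Summed slow fibre markers were 356 to 2050 CPM in HLI and 1194 to 2388 CPM in Sham, lowest in HLI replicate 3. Schwann cell markers summed to 245 to 642 CPM in HLI and 315 to 936 CPM in Sham. Neutrophil markers summed to 5.39 to 61.1 CPM in HLI and 2.72 to 67.7 CPM in Sham, highest in HLI replicate 1 and Sham replicate 3. Pericyte and smooth muscle markers summed to 1058 to 1673 CPM in HLI and 1407 to 1513 CPM in Sham, and fibro-adipogenic markers to 1535 to 2938 CPM in HLI and 2089 to 2591 CPM in Sham. In none of these lists did a gene pass the test.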
